A study of Mus musculus with 2 samples.

Results

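Keratinocytes of the mouse hair follicle that were in G2 or mitosis were picked out of 2 single-cell libraries by their own transcripts. A cell was a member when it detected 4 or more of the 7 genes Ube2c, Cdc20, Ccnb1, Cenpf, Hmmr, Plk1 and Aspm and had at least 1 UMI (unique molecular identifier, counted once per captured transcript) of Krt5 or Krt14. Only cells with 1000 or more detected genes and no more than 10% of UMIs from mitochondrial genes were considered. The rule took 632 of 3879 kept keratinocytes in replicate 1 and 494 of 3005 in replicate 2, so 1126 of 6884 keratinocytes and of 11672 deposited barcodes in all. Both libraries belong to 1 group of wild-type mice of strain C57BL/6;CD1 at postnatal day 32, in anagen, when the hair follicle grows. The skin cells had been sorted as hair follicle stem cells by the surface protein CD34 and by H2BGFP, a green fluorescent histone under the K14 promoter, which is active in basal keratinocytes, and both libraries were made with the 10x Chromium 3′ kit v3. Every animal carried the reporter, no second genotype, treatment or age was measured, and the labels do not say whether the libraries came from different animals. The p-values below therefore rest only on how far differences between classes of cells varied from 1 of these 2 libraries to the other, which may be technical. A library term in the fit takes up the general difference between the libraries, and all classes in the fit share 1 estimate of the spread.

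Members were set against 2 other classes of keratinocytes from the same libraries. Cells in S phase without mitotic transcripts had at least 5 of the 8 replication genes Rrm2, Tyms, Mcm5, Mcm6, Gins2, Clspn, Hells and Uhrf1 and at most 1 of the 7 rule genes, and numbered 362 and 322. Non-cycling cells had 0 of the 7 genes and at most 1 of the 8, and numbered 1425 and 1131. Levels are given in CPM, UMIs of a gene for every 1000000 UMIs in a class of a library, with replicate 1 named first. CPM of different genes are counts of 3′ ends and are not divided by transcript length.

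A cell that has copied its DNA passes through G2 and divides in mitosis under cyclin B bound to Cdk1. The genes needed for this are switched on together late in the cycle, and several of their proteins are then destroyed as the cell exits mitosis: the anaphase-promoting complex, helped by Cdc20 and by the ubiquitin-conjugating enzyme Ube2c, marks cyclin B for degradation. In anagen the follicle grows downward by division of its outer root sheath and of the matrix cells at its base, while the bulge above, where CD34 marks the slow-cycling stem cells, divides only for a short time. In mammalian cells the late genes share promoter elements, a CCAAT box and a cell cycle homology region with the letters TTTGAA or sometimes TTTAAA, whereas many S phase genes carry an E2F site instead.

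The promoters of 3 rule genes and 2 replication genes are shown because they carry the letters by which both gene sets differ. The sequences are from RefSeq on GRCm38.p6, 130 bases that end just before the annotated start, written 5′ to 3′ on the strand of the gene. Capitals mark the box CCAAT, the homology region as TTTGAA and in its other spelling TTTAAA, and the E2F site as TTCCCGC and in its other spelling TTGGCGC. Each was searched on both strands, so that ATTGG is the box and TTCAAA the homology region read from the other strand. The windows are chr2:164769799-164769928, plus strand (Ube2c), chr4:118437344-118437473, minus strand (Cdc20), chr13:100786487-100786616, minus strand (Ccnb1), chr1:128359706-128359835, minus strand (Mcm6) and chr19:38930860-38930989, plus strand (Hells).
Ube2c: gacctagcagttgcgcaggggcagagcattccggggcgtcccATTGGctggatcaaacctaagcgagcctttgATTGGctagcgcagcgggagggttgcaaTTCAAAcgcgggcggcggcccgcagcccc
Cdc20: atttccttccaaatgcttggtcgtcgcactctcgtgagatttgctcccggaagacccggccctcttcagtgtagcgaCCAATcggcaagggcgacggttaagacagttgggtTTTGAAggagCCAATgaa
Ccnb1: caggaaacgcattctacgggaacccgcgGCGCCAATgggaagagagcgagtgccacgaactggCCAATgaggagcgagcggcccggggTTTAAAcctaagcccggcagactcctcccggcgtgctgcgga
Mcm6: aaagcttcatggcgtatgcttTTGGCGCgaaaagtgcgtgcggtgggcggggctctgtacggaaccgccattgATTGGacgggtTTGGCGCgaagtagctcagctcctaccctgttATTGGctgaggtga
Hells: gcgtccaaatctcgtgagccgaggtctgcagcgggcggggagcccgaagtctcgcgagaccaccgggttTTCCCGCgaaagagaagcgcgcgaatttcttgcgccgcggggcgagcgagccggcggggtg
In Ccnb1 the capital run GCGCCAAT is an E2F form on the other strand that overlaps a CCAAT box.

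Over 300 bases (250 before to 50 after the start, the first listed promoter of each gene), all 7 rule genes held CCAAT and 6 held TTTGAA; the exception was Ccnb1, which held TTTAAA. Among 76 genes with a listed promoter of 96, which are the 7 rule genes again and the 89 of the lists of mitotic regulators, kinetochore, passenger, spindle and cytokinesis genes, 64.5% held TTTGAA, against 18.1% of 27025 promoters in all and 12.2% of 49 replication genes, those that chose the S phase cells included. CCAAT was in 71.1% of the mitotic, 37.9% of all and 59.2% of the replication promoters, and both motifs together were in 51.3%, 7.12% and 10.2%. The E2F forms had the other order, at 15.8% of the mitotic, 6.93% of all and 57.1% of the replication promoters. These are matches of letters, given as a description.

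The 7 rule genes chose the members, so their levels describe the choice and carry no test. Ube2c (chromosome 2, 164769898 to 164778822, GENCODE M21 on GRCm38), which feeds ubiquitin to the anaphase-promoting complex, stood at 648 and 623 CPM in members and at 13.1 and 7.78 in S phase cells. Cenpf, a kinetochore-associated protein that accumulates in G2 (chromosome 1, 189640606 to 189688086), stood at 445 and 521 CPM against 6.56 and 8.89. Cdc20, the activator of the anaphase-promoting complex (chromosome 4, 118432901 to 118437352), was at 428 and 375 against 17.6 and 12.7. These 3 genes were the most abundant of the set in both libraries, and their levels in the libraries lay close together. Ccnb1, cyclin B1 (chromosome 13, 100778650 to 100786570), stood at 221 and 201 CPM against 3.60 and 3.55 in S phase cells. Hmmr, a spindle protein (chromosome 11, 40701395 to 40733422), reached 184 and 208 CPM against 0.847 and 0.222. The kinase gene Plk1 (chromosome 7, 122159439 to 122169873) reached 90.1 and 94.2, and Aspm, which acts at spindle poles (chromosome 1, 139454772 to 139494091), 59.2 and 56.8. All 7 were at 0 in non-cycling cells by the definition of that class.

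Ube2c was detected in 94.6% (95% Clopper-Pearson interval 92.6 to 96.2) and 93.1% (90.5 to 95.2) of members, and Cenpf in 93.8% and 97.4%. Plk1 was seen in only 62.0% and 64.6% of members and Aspm in 49.4% and 50.6%. After thinning each cell to 5000 UMIs these shares fell to 77.0% and 76.6% for Ube2c and to 26.5% and 24.4% for Aspm. Among the 39 and 36 kept cells with no Krt5 or Krt14 UMI, 7.69% and 11.1% had a Ube2c UMI, at median depths of 10636 and 11890 UMIs. In replicate 1, 2 of these 39 cells detected 4 or more of the 7 rule genes themselves and 1 held 17 Ube2c UMIs, so that share is not a measure of free RNA; in replicate 2 none did, and the highest count was 5.

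Members were spread over the rule rather than crowded at its edge. Exactly 4 of the 7 genes were detected in 122 and 94 members, 5 in 165 and 106, 6 in 174 and 146, and all 7 in 171 and 148. Just outside, 138 and 96 keratinocytes had 3 of the 7. The summed level of the 7 genes was 499 and 394 CPM in the cells with 3 genes and 705 and 737 CPM in those with 4, and it rose without a step to 3519 and 3327 CPM in those with all 7.

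Many members still held replication transcripts, which the rule did not use. At least 5 of the 8 S phase genes were detected in 237 members of replicate 1 (37.5%) and in 272 of replicate 2 (55.1%), and none of the 8 in 33 and 18. The summed level of the 8 genes was 700 CPM in replicate 1 members with 4 rule genes and 384 in those with all 7. In replicate 2 these values were 1185 and 589, so members that detected all 7 genes had about the level of replication transcripts that keratinocytes with 1 rule gene had, 415 and 586 CPM. Median depth went the other way, from 13058.5 to 15000 UMIs in replicate 1 and from 13167.5 to 18178 in replicate 2.

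**Figure D1:**
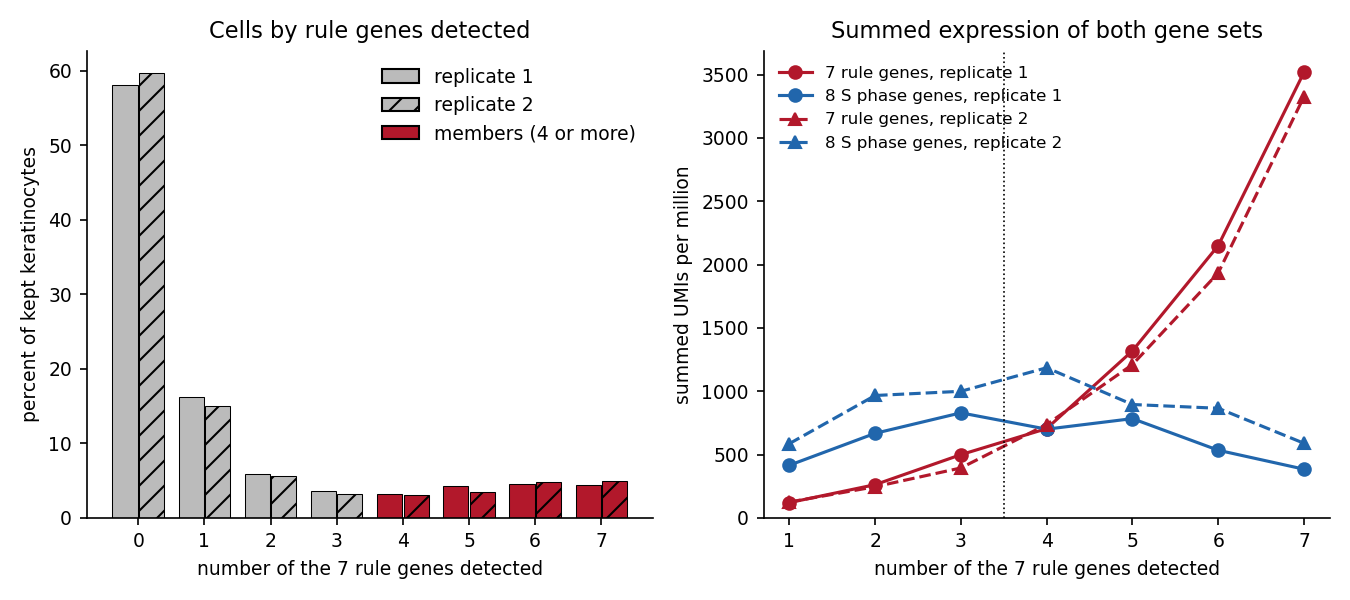
Left, percent of kept keratinocytes by how many of the 7 rule genes they detect, for each library, with members in red, and right, summed CPM of the 7 rule genes and of the 8 S phase genes in the same bins (dotted line: threshold). The red lines rise to 3519 and 3327 while the blue lines end at 384 and 589.

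As a share of kept keratinocytes, members were 16.3% (95% interval 15.1 to 17.5) in replicate 1 and 16.4% (15.1 to 17.8) in replicate 2, which gives 16.4% ± 0.104 on average (SD, n = 2 libraries). The libraries did not differ beyond counting error, which is all that such intervals cover. Krt5 was detected in 99.8% and 99.4% of members and Krt14 in 99.1% and 98.4%, with medians of 66 and 85 UMIs of both, and Cd34, the marker of the sort, in 48.4% and 44.1% (28.9% and 23.8% after thinning to 5000 UMIs). A Cd34 UMI was as frequent in kept cells with no Krt5 or Krt14 UMI, 64.1% and 47.2%, so its share is not read as a level of stem cells. Members were the deepest class, with medians of 14159.5 and 16140 UMIs against 11924.5 and 12673.5 in S phase and 8322 and 8164 in non-cycling cells, and a rule on detection favours deep cells. With membership called after thinning each cell to 5000 UMIs the mean share was 10.8%. Median mitochondrial shares of members were 5.99% and 4.19%, beside 5.86% and 4.41% in S phase and 6.16% and 4.53% in non-cycling cells. High doublet scores were found in 11.2% and 8.5% of members, 9.39% and 5.9% of S phase cells and 1.96% and 1.41% of non-cycling cells, and the part of doublets in the results was not tested beyond leaving such cells out. The libraries held 52344178 and 38678103 UMIs over all barcodes, and members 9625728 and 8622019. They had 11 barcodes in common, of which 1 was a member in replicate 1 and 0 in replicate 2. Defining markers of immune cells were near 0 in members, at a summed 1.77 and 1.62 CPM over 6 genes, with Ptprc at 0 in both libraries, which allows up to 0.312 and 0.348 CPM (3 UMIs). Markers of fibroblasts summed to 94.1 and 395 CPM in members (1 of 6 at 0 in replicate 1, none in replicate 2), 96.3 and 82.2 in S phase cells and 1324 and 878 in non-cycling cells. Melanocyte markers summed to 3.22 and 10.8 CPM in members, endothelial markers to 28.05 and 7.42, muscle and pericyte markers to 7.27 and 2.32 and Schwann cell markers to 21.7 and 2.2.

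Genes of the mitotic machinery outside the rule are part of the same choice and are described without a test. Of 22 mitotic regulators, 21 were higher in members than in S phase cells by the fitted value, with a median log2 difference of 2.46 beside -0.00 over all 12791 genes. Ccnb2, the second B-type cyclin, stood at 267 and 244 CPM against 6.98 and 6.22. The kinase partner of the cyclins, Cdk1, stood at 321 and 294 against 60.5 and 43.8, and cyclin A2 (Ccna2), which acts in S phase and G2, at 139 and 149 against 15.2 and 11.6. The most abundant of the list were Ube2s, another ubiquitin-conjugating enzyme of the anaphase-promoting complex, at 857 and 921 CPM against 327 and 279.9, and Cks2, a small subunit of cyclin-dependent kinases, at 681 and 548 CPM against 140.1 and 125; its paralog Cks1b was at 327 and 321 CPM against 183 and 189. The exception was Mybl2, a transcription factor of the late genes, at 13.8 and 14.6 CPM in members and 18.0 and 16.2 in S phase cells, while Foxm1, which acts with it in mammalian cells, was at 43.0 and 41.9 against 4.44 and 3.33. Pkmyt1, an inhibitory kinase of Cdk1, was at 43.8 and 44.2 CPM against 36.4 and 30.4.

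All 20 kinetochore and checkpoint genes had higher values in members than in S phase cells, with a median log2 difference of 2.87. Cenpa, the histone variant that marks the centromere, was the most abundant of them at 542 and 460 CPM against 35.1 and 18.9. Cenpe, a kinesin of the kinetochore, was at 194 and 178 CPM against 10.2 and 11.1, Spc24, of the Ndc80 complex, at 209 and 277 CPM against 70.3 and 86.9 and Cenpw at 123 and 133 CPM against 44.9 and 52.9, of which Spc24 and Cenpw were also well detected in S phase. Bub1b, of the spindle checkpoint, was at 71.2 and 73.9 against 5.29 and 3.33. The 11 genes of the Aurora kinases and passenger proteins had a median difference of 3.30, led in level by Birc5 (survivin), at 445 and 464 CPM against 45.5 and 41.3. Cdca8 (borealin), which anchors the Aurora B complex, was at 338 and 395 CPM against 36.6 and 35.5, Cdca3, which promotes entry into mitosis, at 339.6 and 379 CPM against 21.8 and 16.9 and the mitotic kinase gene Pbk at 121 and 158 CPM against 24.97 and 23.99. The 25 spindle and kinesin genes had a median of 3.11: Kif11, the motor that separates the poles, was at 77.9 and 92.9 against 4.23 and 7.55, and the tubulin gene Tubb4b at 1207 and 1489 against 286 and 351. Stmn1 (stathmin), which destabilises microtubules, was the most abundant at 1661 and 2589 CPM against 685 and 1112, while Arl6ip1 was at 614 and 636 CPM against 104 and 89.8 and Prc1, which bundles the central spindle, at 217 and 321 CPM against 30.3 and 33.3. The 11 cytokinesis genes had a median of 3.30, with Racgap1, of the central spindle, at 164 and 160 CPM against 16.1 and 13.8, Anln (anillin) at 105 and 103 CPM against 10.4 and 9.33 and Ect2, which activates RhoA at the cleavage furrow, at 64.5 and 57.3 CPM against 14.8 and 9.33; Plk4, which starts centriole duplication, differed less at 55.5 and 64.95 CPM against 25.6 and 26.7.

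Chromosome structure genes were already present in S phase and differed less, with a median log2 difference of 1.54 over 16 genes. Top2a, the topoisomerase that untangles sister chromatids, was at 396 and 530 CPM against 63.7 and 80.0, and Mki67 at 394 and 357 against 54.2 and 44.4. The histone variant gene H2afz reached 3986 and 3851 against 1695 in the S phase cells of each library. The chromatin protein genes Hmgb2, at 2609 and 2282 CPM against 764 and 616, H2afv, at 877 and 957 CPM against 319 and 368, and Hmgb1, at 874 and 1132 CPM against 395 and 617, followed. Of 30 fitted replication-dependent histone genes 28 had higher values in members, with a median of 2.35, although these genes belong to S phase; the linker histone gene Hist1h1b was at 368 and 499 CPM against 79.8 and 73.98 and its relative Hist1h1e at 249.9 and 288 CPM against 93.5 and 68.2. Hist1h2bc, at 245 and 159 CPM against 172 and 96.2, and Hist1h1c, at 192 and 84.3 CPM against 254 and 69.3, were also abundant in non-cycling cells, at 279 and 129 and at 350.5 and 145. The libraries differed widely for Hist1h2ae, at 37.8 and 420 CPM in members, and copies of these genes are so alike that reads may be split between them. The 3′ kit captures RNA by its poly(A) tail, which most mRNAs of these histones lack.

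Of the 8 genes that chose the S phase cells, Mcm5, Mcm6, Gins2, Hells and Uhrf1 were lower in members: Gins2, of the replicative helicase, was at 34.6 and 51.7 CPM against 144 and 200, and Mcm6, another helicase subunit, at 43.6 and 78.5 against 153 and 186. The other 3 were not lower by the fitted value: Clspn (claspin), of the replication checkpoint, was at 37.4 and 57.8 CPM against 41.1 and 49.99, Tyms (thymidylate synthase) at 173 and 265 against 163 and 188, and Rrm2 (ribonucleotide reductase) at 141 and 148 against 141 and 116. Among 57 further replication genes the median log2 difference was -0.41, from -2.46 for the uracil glycosylase gene Ung (13.4 and 17.4 CPM against 71.3 and 93.5) to 1.21 for E2f8, a repressor of E2F targets (23.6 and 26.4 against 11.0 and 10.0). The early-S transcription factor E2f1 was at 10.1 and 14.4 against 44.7 and 45.8, and the thymidine kinase gene Tk1 at 143 and 180 against 91.4 and 112. Among the most abundant of the list, the dUTPase gene Dut was at 315 and 477 CPM against 371 and 465, the histone chaperone gene Nasp at 238 and 332 CPM against 315 and 366 and Tipin, the partner of Timeless, at 89.3 and 132 CPM against 132 and 154.

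**Figure D2:**
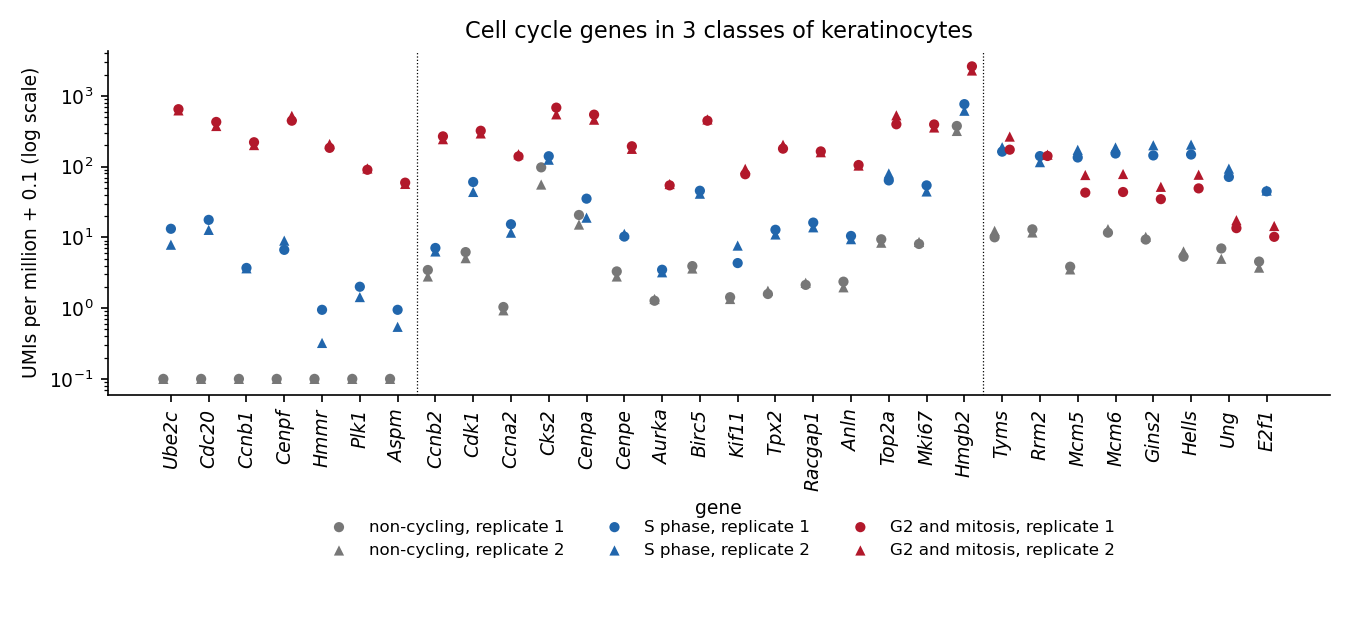
CPM plus 0.1, on a log axis, of 30 cell cycle genes in members (red), S phase cells (blue) and non-cycling cells (grey), with circles for replicate 1 and triangles for replicate 2; dotted lines part the rule genes, further mitotic genes and replication genes. Mitotic genes are highest in members in both libraries, while Mcm5, Mcm6, Gins2, Hells, Ung and E2f1 are highest in S phase cells.

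By marker scores members were assigned to every one of the 8 follicle states, some on few transcripts, and no state held most of them. By nearest cluster of non-cycling cells 0 members fell in the Krtdap or inner root sheath states, because no cluster carried those markers. The state of a cell was the marker set with the highest mean z-score (log-transformed UMIs per 10000, scaled over the keratinocytes of its library), where that score reached 0.25 and led the next by 0.25. By this measure 20.4% (95% interval 17.3 to 23.8) of members in replicate 1 and 12.6% (9.76 to 15.8) in replicate 2 carried the Wfdc18 state (Wfdc18, Pthlh, Dclk1, Sbsn). The Krtdap state (Krtdap, Gm973, Sostdc1) held 9.97% and 17.8%, so the leading state was another in each library. The Fgf5 state (Fgf5, Fbln5, Acta2) held 11.9% and 10.5%, the Edn2 state (Edn2, Dio3, Cpxm1) 11.9% and 6.48%, and cells with inner root sheath keratins (Krt25, Krt27, Krt28, Krt71) 7.59% and 8.91%. The smallest were the Gdf10 state (Gdf10, Scrg1, Nppc, Nrg1), with 3.8% and 2.63%, the upper follicle markers (Defb6, Krt79, Cst6, Ly6d), with 2.85% and 3.24%, and the Krt24 state (Krt24, Grem1, Tgm5, Calml3), with 0.475% and 1.82%. No state was reached by 31.2% and 36.0% of members. Of members whose top score reached 0.25, 91 and 65 had a lead within 0.1 of its limit, while members near the score limit were not counted.

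Compared with non-cycling cells, few members carried the Gdf10 and Krt24 states by their marker scores. The Gdf10 state held 12.9% (11.2 to 14.8) and 13.9% (11.9 to 16.03) of non-cycling cells, and the Krt24 state 3.37% (2.49 to 4.44) and 14.1% (12.2 to 16.3). Intervals of members and non-cycling cells did not overlap in either library for these 2 states; S phase cells, with 3.59% and 4.66% in the Gdf10 state, lay near the members. With each cell given to the nearest cluster of non-cycling cells instead, the Gdf10 state still held fewer members, 10.3% and 14.4% against 22.3% and 22.1%, but the Krt24 contrast did not hold in replicate 2: 4.43% of members against 7.86% of non-cycling cells in replicate 1, and 27.7% (23.8 to 31.9) against 23.8% (21.3 to 26.4) in replicate 2. The Krt24 state held 1.1% and 6.21% of S phase cells, and in replicate 2 that interval (3.83 to 9.43) lay above that of members (0.836 to 3.43). In the other direction, inner root sheath keratins marked 1.4% and 1.95% of non-cycling cells and the Krtdap state 6.25% and 4.86%, and again the intervals of members did not overlap those of non-cycling cells in either library. The summed level of the 4 inner root sheath keratins went the other way in replicate 1, at 165 CPM in members against 394 in non-cycling cells. In replicate 2 it was 84.4 against 25.7. The summed level of the 3 Krtdap state markers was lower in members in both libraries, at 129 and 492 CPM against 207 and 545 in non-cycling cells. Members were also deeper than non-cycling cells, and the part of depth in these shares was not tested. Since 2 libraries of 1 group cannot reach p under 0.05 in an exact permutation test (the smallest 2-sided p is 0.333), these shares carry counting intervals only.

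Seen from the states, 41.7% (32.6 to 51.3) and 34.9% (26.6 to 43.9) of the keratinocytes with inner root sheath keratins were members, and 25.9% and 30.2% of those in the Krtdap state. The share was 18.6% and 16.5% with upper follicle markers, 15.9% and 16.9% in the Wfdc18 state and 14.8% and 12.01% in the Fgf5 state. It was 13.1% and 7.92% in the Edn2 state, 7.48% and 4.83% in the Gdf10 state and 4.17% and 3.8% in the Krt24 state. Depth differed between states as well, and the inner root sheath and Krtdap states, with the highest shares, were also the deepest in both libraries. Median UMIs were 12701 and 13051.5 with inner root sheath keratins, 11178 and 13699 in the Krtdap state and 9959 and 12286 with upper follicle markers. They were 10323 and 9344 in the Wfdc18 state, 10833.5 and 10632 in the Fgf5 state and 8952.5 and 8309 in the Edn2 state. The Gdf10 state had 9544 and 8903 and the Krt24 state 8262.5 and 8637. The part of depth in the order of states was not tested. Membership was also called after thinning to 5000 UMIs, with states kept as scored on all UMIs. The inner root sheath then held 24.8% and 20.7%, the Krtdap state 18.1% and 19.9%, and the Krt24 state was last with 1.45% and 2.73%. Since states were not scored again, these values do not give the order at equal depth. There were 175 (153 to 199) and 153 (133 to 177) members for every 100 S phase cells over all states, 107 and 80 in the Edn2 state and 300 and 183 in the Krtdap state, where the count of S phase cells was 21 and 48.

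The score rests on few transcripts in some states. In the Wfdc18 state all members detected at least 2 of the 4 markers, with medians of 27 and 23 marker UMIs, and in the Fgf5 state medians were 37 and 34.5. In the Gdf10 state only 37.5% and 46.2% of members detected 2 or more markers, and of the 18 and 16 members with upper follicle markers 50% and 43.8%. With inner root sheath keratins 70.8% and 65.9% did. The Krt24 state held 3 and 9 members, with medians of 1 and 9 marker UMIs, and 33.3% and 100% of them detected 2 or more of its 4 markers. The Krtdap state was supported unequally, with 2 or more of 3 markers in 71.4% of its members in replicate 1 and in all of them in replicate 2, where those members had a median of 20415.5 UMIs. The summed level of the 7 rule genes ranged over states from 1475 CPM (upper follicle) to 2771 CPM (Gdf10 state) in replicate 1 and from 1751 CPM (inner root sheath) to 2392 CPM (Gdf10 state) in replicate 2. Among states with at least 10 members in both libraries, at least 5 S phase genes were detected least often in the Gdf10 state, in 12.5% and 23.1% of its 24 and 13 members.

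**Figure D3:**
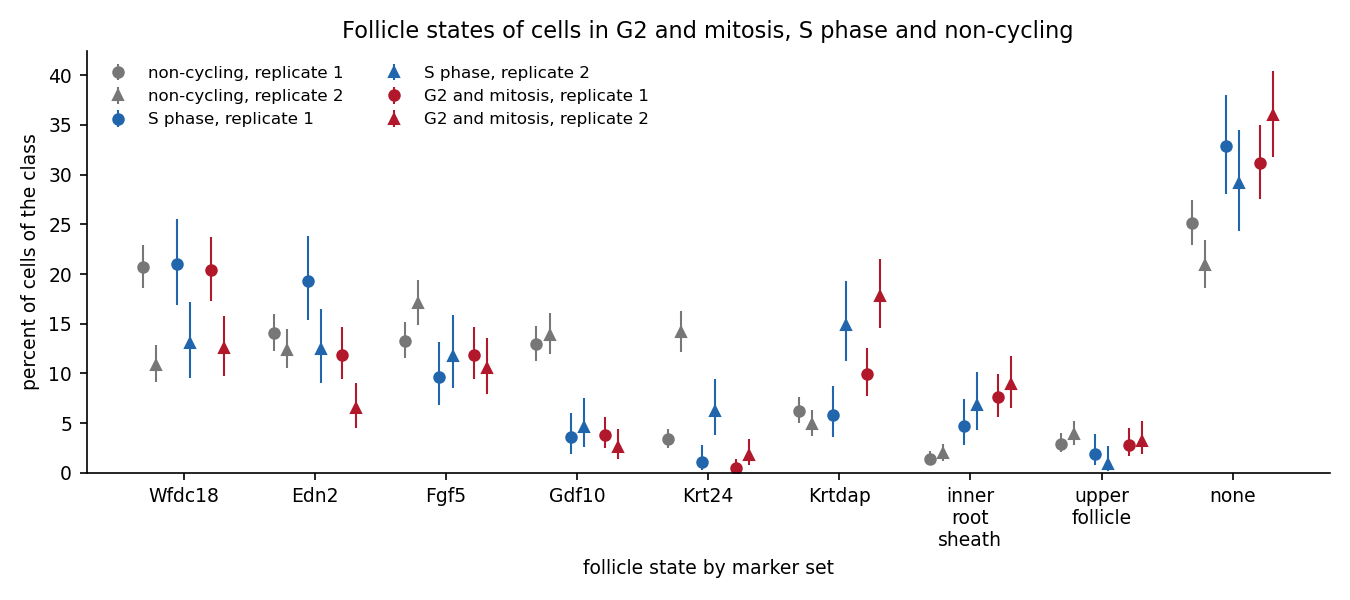
Percent of the cells of each class that carry each follicle state (none: no state reached), with 95% Clopper-Pearson intervals, circles for replicate 1 and triangles for replicate 2. Members (red) lie below non-cycling cells (grey) in the Gdf10 and Krt24 states and above them for inner root sheath keratins and the Krtdap state by marker scores, an order that for Krt24 turned in replicate 2 by nearest cluster (27.7% against 23.8%). Summed CPM of the Krtdap markers were lower in members than in non-cycling cells in both libraries (129 against 207 and 492 against 545).

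To ask what else set members apart from S phase keratinocytes, UMIs were summed per class and library and fitted with edgeR (quasi-likelihood test, library as a term, Benjamini-Hochberg adjustment over 12791 genes, threshold 0.05). The fit called 614 genes higher in members, 4.80% of those tested, and 424 lower, 3.31%, together 8.12%. Outside the cell cycle lists 478 of 12584 were higher (3.80%) and 395 lower (3.14%). Counts of calls in the lists below have to be read against these shares. Changes in this section are log2 fold changes, positive where members were higher. The fit has 3 residual degrees of freedom, and without the library term it called 183 genes higher and 11 lower.

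Of the genes named outside the cell cycle lists, Cdkn3, a phosphatase that acts on cyclin-dependent kinases, rose most. It was at 107 and 91.6 CPM in members and at 5.93 and 1.78 in S phase cells, a log2 fold change of 4.64 (SE 0.23, edgeR adjusted p = 2.1e-06). Sapcd2, which takes part in orienting the spindle, followed with 31.3 and 45.1 against 1.69 and 1.78 (4.40), Prr11 with 23.7 and 22.2 against 2.12 and 0.222 (4.23) and Troap with 34.2 and 30.3 against 2.54 and 2.22 (3.71). Knstrn, a kinetochore protein, rose by 3.35, the transcriptional repressor gene Mxd3 by 3.23, Miip by 2.87 and the kinetochore gene Spdl1 by 2.75. Lockd, a noncoding RNA gene next to Cdkn1b, rose by 2.74 and the DNA glycosylase gene Neil3 by 2.60. In all 10 every value in members lay above every value in S phase cells. The fixed lists do not hold every cell cycle gene, and Sapcd2, Knstrn and Spdl1 act at the spindle or kinetochore. Members were chosen by genes of the same phase, so rises of such genes, Cdkn3 included, cannot be told apart from that choice. Their p-values describe the choice as well.

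Falls were smaller. Zmynd19 fell by 1.24 (SE 0.18, edgeR adjusted p = 0.0026), from 18.2 and 27.1 CPM in S phase cells to 8.41 and 11.3 in members, and Gpr180 by 1.23, from 29.4 and 38.9 to 12.2 and 18.0. Timeless, which protects replication forks, dropped by 1.07, from 33.4 and 41.3 to 14.02 and 23.0, and Srm, the spermidine synthase, by 1.03, from 68.8 and 92.4 to 34.2 and 47.2. Krt75, the keratin of the companion layer, was at 76.4 and 31.3 CPM in S phase cells and at 22.6 and 21.8 in members, a change of -1.24 (-1.75 in replicate 1 alone and -0.52 in replicate 2 alone) whose call was lost under 4 of 13 other settings. Sult5a1 (-1.10), Gstt1 (-1.07), Galnt14 (-1.05) and 2610524H06Rik (-1.03) complete the list. The haemoglobin gene Hba-a1 had the lowest fitted value, -6.76, from a single sum: it stood at 202 CPM in the S phase cells of replicate 2, at 0.635 in those of replicate 1 and at 0.312 and 1.28 in members, and its direction was reversed under another setting.

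Among G1 cyclins and inhibitors of cyclin-dependent kinases, 5 of 20 tested genes were higher in members and 4 lower, beside 4.80% and 3.31% of all genes. Besides Cdkn3, these were the inhibitors Cdkn2d (p19), at 106 and 115 CPM against 25.6 and 18.9 (2.26, SE 0.16, edgeR adjusted p = 2e-05), Cdkn2c (p18), at 64.6 and 57.3 against 27.9 and 16.2 (1.44), and Cdkn1b (p27), at 110 and 115 against 80.6 and 79.1 (0.45), with the atypical cyclin gene Ccng2 at 32.0 and 27.8 against 13.3 and 14.4 (1.06). Cyclin D1 (Ccnd1) was lower, at 408 and 283 against 514 and 361 (-0.39, edgeR adjusted p = 0.03). The falls of Cdk2 (-0.53), Ccnd3 (-0.36) and the antiproliferative gene Btg1 (-0.28) were lost under 5, 7 and 7 of 13 other settings. Btg2, the most abundant gene of the list, was at 965 and 479 CPM against 1247 and 669 and Cdk4, the kinase partner of cyclin D, at 283 and 377 CPM against 322 and 409.7, with no call for either. Cdkn1a (p21) was at 136 and 105 CPM against 112 and 74.0 and did not pass the test (edgeR adjusted p = 0.081). Genes named from these lists because they passed were picked after their values were seen, here and below.

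Sterol synthesis genes, which make cholesterol for membranes, leaned upward: 6 of 18 were higher, beside 4.80% of all genes, none lower, and 17 had positive values, with a median of 0.32. Hmgcs1, which makes HMG-CoA, was at 113 and 121 CPM against 69.0 and 87.5 (0.54). Mvk (0.55), Insig1 (0.56) and Fdft1 (0.49) were also higher, of which Insig1 was lost under 9 of 13 other settings.

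Ribosomal protein genes went the other way. Of 81 tested, 43 were lower in members, beside 3.31% of all genes, and none higher. All 81 had negative values and the median was -0.28. Together they took 184134 and 228025 CPM in members and 226794 and 259803 in S phase cells. The median lay between -0.45 and -0.25 under the 13 other settings, DESeq2 size factors included, while the number called lower ran from 0, without the library term, to 77, without members that detected 5 or more S phase genes. Reads of these genes can be shared with their many processed pseudogenes. Of 20 ribosome biogenesis genes 3 were lower and none higher (median -0.18): Nhp2 (-0.34), Rrs1 (-0.46) and the RNA polymerase subunit gene Polr1b (-1.61, at 1.77 and 2.09 CPM against 4.23 and 7.33). Npm1 (nucleophosmin), the most abundant of them, was at 1311 and 1958 CPM against 1423 and 2284 and did not pass.

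Follicle stem cell genes gave 1 higher and 2 lower calls between members and S phase cells, beside 4.80% and 3.31% of all genes. Such small counts are not read as a result about the list. Of 24 genes of follicle stem cells, the transcription factor gene Lhx2 was higher, at 216 and 263 CPM against 157 and 204 (0.37, edgeR adjusted p = 0.046), a call lost under 9 of 13 other settings. Krt17, a keratin of the outer root sheath, was lower at 7130 and 4962 against 8723 and 5668 (-0.28), and so was Trp63, a transcription factor that stratified epithelia need, at 235 and 161 against 291 and 218 (-0.41, edgeR adjusted p = 0.02). Lgr5 was at 123 and 122 CPM against 94.0 and 130, and Cd34, the marker of the sort, at 64.6 and 66.0 against 84.0 and 63.5, with no call for either. Sox9, at 660 and 283 against 701 and 351, was not called.

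State markers gave 6 lower and 0 higher calls among 29 in the 8 sets, beside 3.31% lower and 4.80% higher over all genes, so lower calls were more frequent among them. Cpxm1 of the Edn2 state was at 59.5 and 53.1 CPM against 112 and 105 (-0.98, SE 0.14, edgeR adjusted p = 0.0023). Pthlh, which encodes a secreted hormone-like peptide and belongs to the Wfdc18 state, was at 300 and 112 against 487 and 184 (-0.75). That call was lost with state as a term of the fit, which used only cells of the Wfdc18, Edn2, Fgf5 and Krtdap states. Nrg1 (-1.10), Calml3 (-0.80), Grem1 (-1.15) and Krt24 (-1.94) were lower as well, each lost under 3 to 5 other settings. Of these Grem1, at 0.623 and 17.4 CPM against 0.635 and 39.3, differed in replicate 2 only (-1.18 there and -0.03 in replicate 1), and Krt24, at 0.208 and 4.41 against 3.17 and 13.1, rested on few UMIs. The 4 inner root sheath keratins had positive values, 0.76 to 1.28, and none passed: Krt28 was at 76.6 and 44.4 CPM in members and 45.3 and 19.3 in S phase cells.

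Adhesion genes gave 0 calls, beside 8.12% of all genes in either direction. Lists of 19 and 16 genes are too short to tell 0 calls from that share. None of 19 hemidesmosome and basement membrane genes (median -0.06, 2 of them at an unadjusted p under 0.05) and none of 16 junction genes (median -0.05, 1 at an unadjusted p under 0.05) passed in the edgeR fit, and DESeq2 called none of either list. Col17a1, the hemidesmosome collagen, was at 111 and 119 CPM against 106 and 152, the integrin gene Itga6 at 118 and 112 against 109 and 93.5, and the desmosome gene Dsp at 349 and 249 against 340 and 295. The gap junction gene Gja1, at 2206 and 1116 CPM against 2075 and 1177, and Perp, of desmosomes, at 1197 and 992 CPM against 1134 and 1090, did not pass. Of 20 actin and cell cortex genes only Tagln2, an actin-binding protein gene, passed, at 1321 and 868 against 971 and 669 (0.37, edgeR adjusted p = 0.015), and the actin genes Actg1, at 4339 and 3855 CPM against 3462 and 3325, and Actb, at 4058 and 3535 CPM against 3430 and 3249, did not. Among 24 immediate early genes only Dusp6, a MAP kinase phosphatase, passed (-0.39), and among 13 heat shock genes Hspe1 (-0.35) and Dnajb1 (-0.44) were lower; the chaperone gene Hsp90ab1 was at 1948 and 2999 CPM against 2118 and 3477. The 17 tested genes of Wnt, Notch, hedgehog and BMP signalling gave 0 calls in edgeR and in DESeq2 (median -0.02, 4 at an unadjusted p under 0.05). That list too is short beside the share of 8.12% in the edgeR fit. The fibroblast gene Dcn was higher in members, at 67.9 and 91.4 CPM against 32.2 and 43.5 (1.03, edgeR adjusted p = 0.026), a call lost under 7 of 13 other settings; the part of carried-over fibroblast RNA was not tested.

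**Figure D4:**
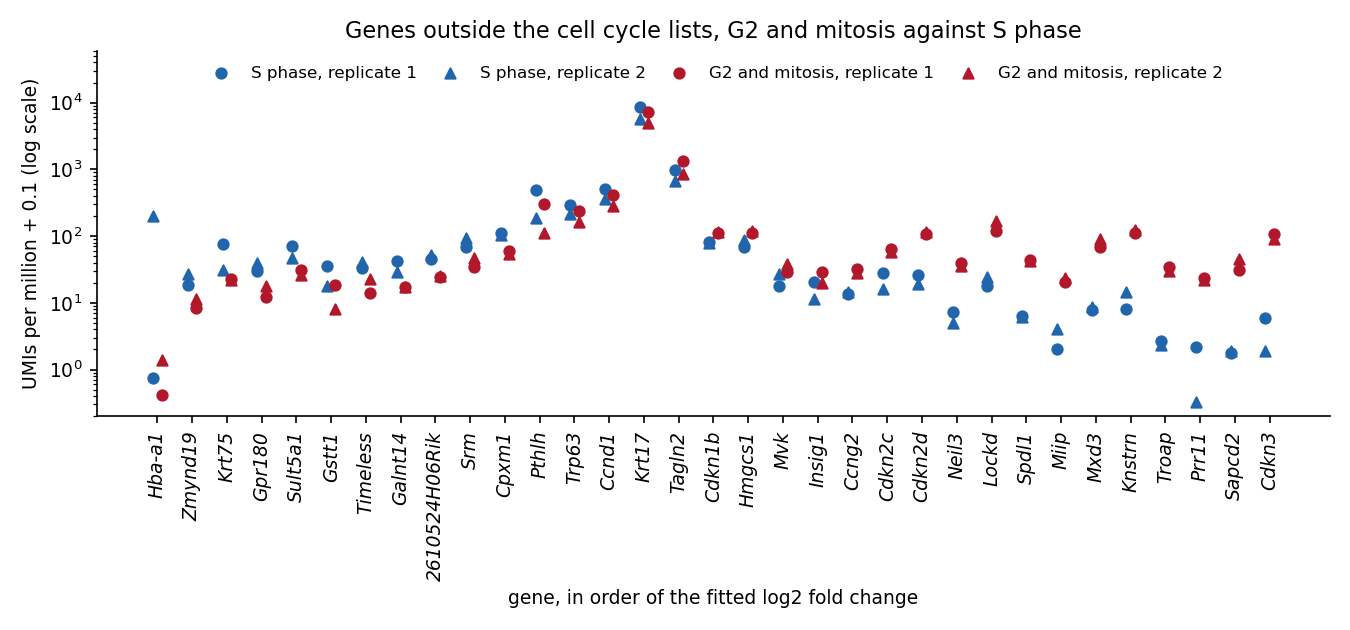
CPM plus 0.1, on a log axis, of named genes outside the cell cycle lists in members (red) and S phase cells (blue) of replicate 1 (circles) and replicate 2 (triangles), ordered by the fitted log2 fold change from Hba-a1 (-6.76) to Cdkn3 (4.64). The haemoglobin gene is high in the S phase cells of replicate 2 alone.

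Against non-cycling keratinocytes the same fit called 2296 genes higher in members (18.0%) and 2320 lower (18.1%), so that 36.1% of genes passed and a list has to be read against that share. The classes also differ in depth, and non-cycling cells were chosen by lack of detection. Immune markers stood at 202 and 169 CPM in the non-cycling class and at 1.77 and 1.62 in members, and fibroblast markers at 1324 and 878 against 94.1 and 395. The largest falls were mostly in genes of immune cells: Wfdc17, H2-Aa, Lyz2, Ccl8, Cd74, Retnla, H2-Ab1 and H2-Eb1 were at 0 to 3.36 CPM in members and at 1.25 to 167 in non-cycling cells. With at least 10 UMIs of Krt5 and Krt14 required, Wfdc17, H2-Aa, Lyz2 and Retnla were too rare to be tested and H2-Eb1 did not pass. Their part in other results of this comparison was not tested beyond that setting.

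Keratinocyte genes made up the other falls of this size. Krt24, a type I keratin, was at 0.208 and 4.41 CPM in members and 4.69 and 82.4 in non-cycling cells (-4.16, SE 0.36, edgeR adjusted p = 2.9e-05), and Cst6, a cystatin that inhibits proteases, at 10.1 and 10.9 against 99.5 and 75.5 (-3.11). The 10 largest rises were Esco2, which joins sister chromatids (59.7 and 81.0 CPM against 0.469 and 0.727, 6.83), Neil3 (6.65), Shcbp1 (6.63), Sapcd2 (6.62), Mxd3 (6.19), Spdl1 (6.04), Prr11 (5.78), the PCNA partner gene Pclaf (486 and 636 against 10.5 and 10.2, 5.70), the histone chaperone gene Asf1b (5.64) and Cdkn3 (5.55). Both classes were chosen by cell cycle genes, so rises of further genes of the cycle cannot be told apart from that choice.

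Markers of the Gdf10 and Krt24 states were lower in members. All 4 of the Gdf10 state passed: Gdf10 itself was at 0.623 and 0.348 CPM against 6.72 and 15.3 (-4.40), Nppc, a natriuretic peptide, at 20.7 and 11.9 against 96.3 and 104 (-2.66, edgeR adjusted p = 2.9e-05), Nrg1 at 16.4 and 3.71 against 71.2 and 20.6 (-2.23) and Scrg1 at 27.9 and 21.2 against 48.0 and 54.9 (-1.10). So did all 4 of the Krt24 state, with Calml3, a calmodulin-like protein, at 14.1 and 27.3 against 53.9 and 194 (-2.47) and Grem1, a BMP antagonist, at 0.623 and 17.4 against 4.14 and 57.9 (-1.89). Of the Wfdc18 set Pthlh (-0.97) and Sbsn (-1.17) were lower, of the Edn2 set Cpxm1 (-0.49), of the Fgf5 set Fgf5 (-0.73, from -0.14 in replicate 1 and -1.29 in replicate 2) and Fbln5 (-1.11), of the Krtdap set Sostdc1 (-0.64), and of the upper follicle set Krt79 (-2.32) and Cst6. Krt28 alone of the 29 markers was called higher, at 76.6 and 44.4 CPM against 13.4 and 4.47 (2.70, SE 0.43, edgeR adjusted p = 0.0014), while Krt25 and Krt71, at 41.5 and 34.8 in members and 133 and 195 in non-cycling cells of replicate 1, did not pass. The other 3 inner root sheath keratins had negative fitted values, and the median of the 4 was -1.01.

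Many stem cell and adhesion genes were lower. Of 24 stem cell genes 14 were lower, beside 18.1% of all genes, and 1, Lhx2 (0.39), was higher. Postn, a matrix protein gene, was at 70.6 and 85.7 CPM against 145 and 208 (-1.19), Cd34 at 64.6 and 66.0 against 92.9 and 148 (-0.90) and Krt15, a bulge keratin, at 2593 and 3790 against 3603 and 8081 (-0.83). Id3, a target of BMP signalling, was at 785 and 738 CPM against 1029 and 1078 (-0.51). Its relative Id1 was at 829 and 496 CPM against 936 and 749 (-0.42) and the Notch ligand gene Jag1 at 139 and 94.2 CPM against 172 and 140.4 (-0.47), while Notch1, at 177 and 71.8 CPM against 137 and 71.8, did not pass. Lgr5, a receptor that marks follicle stem cells, was at 123 and 122 against 97.0 and 130 (0.09) and did not pass. Of 19 hemidesmosome and basement membrane genes 12 were lower and none higher, led by Col17a1 at 111 and 119 against 229 and 357 (-1.35, SE 0.11, edgeR adjusted p = 2.4e-05), while Dst, which links hemidesmosomes to keratin, was at 267 and 318 CPM against 359 and 520.1 (-0.60) and Itgb1, at 173 and 243 CPM against 186 and 283, did not pass. Of 16 junction genes 9 were lower (median -0.30), Gja1 at 2206 and 1116 CPM against 2494 and 1514 (-0.34) and Perp at 1197 and 992 CPM against 1366 and 1255 (-0.30) among them. Immediate early genes were lower in 20 of 24 cases with a median of -0.44, beside -0.06 over all genes: Fos was at 3344 and 3035 CPM against 3955 and 4188 (-0.39), Jund at 1087 and 798 against 1468 and 1298 (-0.60) and Dusp1 at 292 and 179 against 462 and 301 (-0.74). Jun was at 3159 and 2723 CPM against 3676 and 3854 (-0.40), Junb at 1500 and 1189 CPM against 1967 and 1540 (-0.42) and Atf3, a stress-induced factor, at 1290 and 1450 CPM against 1900 and 1901 (-0.51). The small heat shock protein gene Hspb1 was at 999 and 823 CPM against 1878 and 1984 (-1.13), while 4 of 13 heat shock genes were lower and 4 higher.

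Sterol synthesis and ribosome biogenesis genes were mostly higher. Of 18 sterol synthesis genes 14 rose and none fell (median 0.60), with Fdps at 94.1 and 151 CPM against 41.3 and 83.7 (0.98) and Idi1 at 73.7 and 70.4 against 30.1 and 42.9 (0.96). Of 20 ribosome biogenesis genes 14 rose and none fell (median 0.50), with Dkc1, which modifies ribosomal RNA, at 56.5 and 84.6 against 24.2 and 30.9 (1.30), Npm1 at 1311 and 1958 CPM against 1058 and 1169 (0.48), Ncl (nucleolin) at 643 and 943 CPM against 452 and 511 (0.65) and Nop56 at 111 and 127 against 58.7 and 56.3 (1.01). A fit with follicle state as a term used only cells of the Wfdc18, Edn2, Fgf5 and Krtdap states, so it rests on fewer cells. In it the median of the ribosome biogenesis genes was 0.12 and 8 of 19 rose, while 6 of 19 hemidesmosome and 7 of 24 stem cell genes were lower. Over all genes that fit called 1372 higher and 1588 lower. The number of genes tested in it is not given here, so its list counts are not read against a share. Without the library term 4 of 18 sterol, 3 of 20 ribosome biogenesis, 2 of 24 immediate early, 3 of 19 hemidesmosome and 3 of 24 stem cell genes passed. Over all genes 1233 then passed in either direction, against 4616 with the term, so such small counts are not read as results about these lists. Ribosomal protein genes had 43 of 81 lower here too, beside 18.1% of all genes, and none higher. Of the 81, 73 had negative and 8 positive values (median -0.22, beside -0.06 over all genes). As a set, though not gene by gene, they were lower in members than in both other classes. The 2 comparisons share the member sums.

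**Figure D5:**
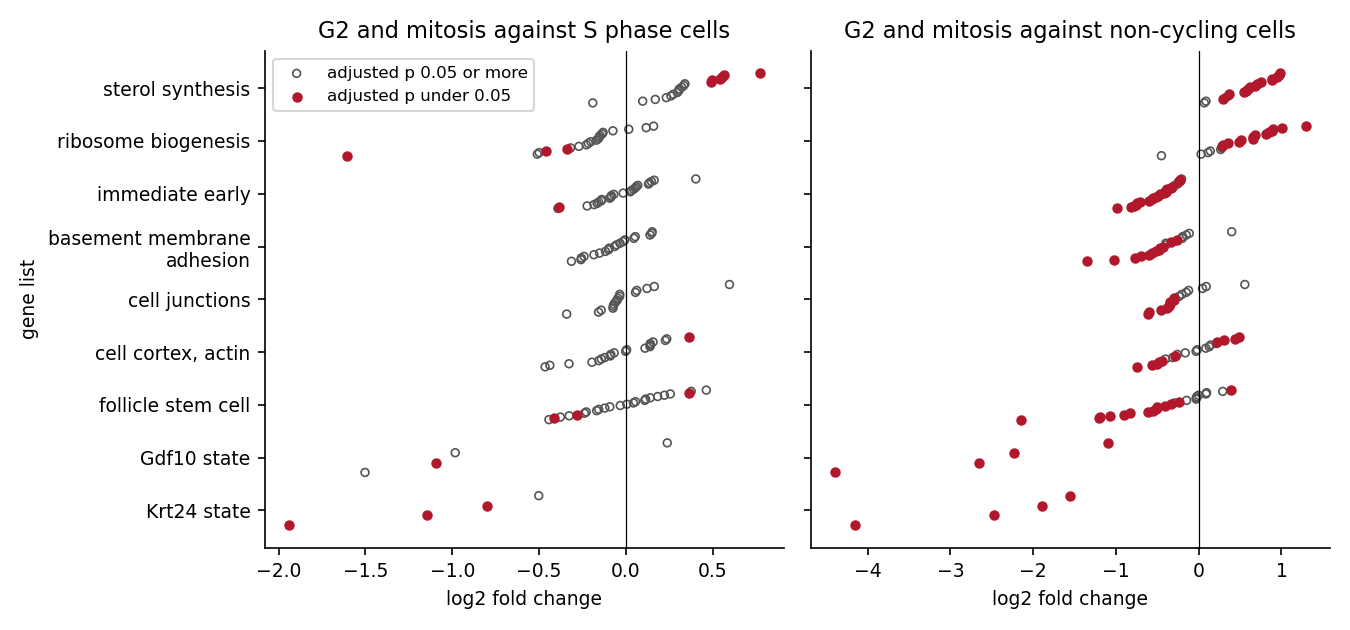
Fitted log2 fold change of each tested gene of 9 lists, with members against S phase cells on the left and against non-cycling cells on the right (filled red: adjusted p under 0.05; the axes differ in range). Sterol genes lie right of 0 but for 1 gene in the left panel, while the immediate early and basement membrane lists lie around 0 on the left and mostly left of 0 on the right.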

How the data were processed

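Single-cell RNA was measured in 2 libraries of 1 group. The authors deposited UMI counts, whole numbers per gene and cell barcode without normalization, made with Cell Ranger 3.1.0 against mm10 and followed by Seurat 3.1, per the submitters' processing notes. The sources used here do not give the gene models; 30934 of 31053 features were found in GENCODE M21, which gave the coordinates. Doublets were kept in the main results: the automatic Scrublet threshold (scanpy 1.11.5) marked 0 cells in each library, so high scores are the top 0.8% of cells for every 1000 barcodes, 255 and 139 cells. Free RNA was left in the counts.

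UMIs of members, S phase, non-cycling and all other keratinocytes were summed per library, giving 8 sums with 3 residual degrees of freedom, and fitted with edgeR 4.0.16 in R 4.3.3 (quasi-likelihood test, two-sided, TMM, the edgeR expression filter). Library is a term because classes with the same replicate number come from the same library. On simulated data the same fit was checked for recovery of known changes. State shares carry exact Clopper-Pearson intervals. Thinned values use 5000 random UMIs per cell, and shallower cells are left out, 6 of the members in each library. Follicle states were scored on all UMIs of a cell also where membership was called on thinned cells. DESeq2 1.42.0 and leidenalg 0.10.2 (for states by nearest cluster) served in alternatives, with Python 3.11.15, numpy 2.4.6 and scipy 1.17.1. Genes were named as the 10 largest called changes in each direction outside the cell cycle lists with a mean of at least 20 CPM in the higher class, provided both libraries moved the same way; ribosomal, mitochondrial and sex-linked marker genes were left out of that ranking. The rule genes, the S phase genes, the state markers and up to 4 genes of each list with the highest mean CPM over members and S phase cells could be added; markers of other cell types and some genes that did not pass are given by the counts of their list only. Other genes named from a list were chosen after their values were seen. Some sterol genes are counted in their list and not reported here by name. The members, the lists and the tests were chosen with earlier results of these data known.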

Additional observations from a re-analysis of the deposited data

How the results depend on the processing

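The members' share depended on the rule and on depth. The mean share of keratinocytes was 16.4%, and it ran over 10.8% with thinned cells, 13.2% with at least 5 rule genes, 15.5% without cells of high doublet score, 16.8% with at least 10 keratin UMIs, 18.0% with at most 5% mitochondrial UMIs and 19.7% with at least 3 rule genes, down to 8.79% without members that detected 5 or more S phase genes. Either library alone gave 16.3% and 16.4%. States depended on their definition. Each cluster took the state of its highest mean score, however low. That score was 0.178 for a Gdf10 cluster and 0.107 for an Fgf5 cluster led by Pcolce, Col3a1 and Col1a2. By nearest cluster of non-cycling cells the Krt24 state held more members than non-cycling cells in replicate 2 (27.7% against 23.8%), and the mean shares were 29.4% Wfdc18, 22.5% Edn2, 12.9% Fgf5, 12.3% Gdf10, 16.1% Krt24, 6.77% upper follicle, and 0% Krtdap and inner root sheath because no cluster carried those markers. Without a minimum score or lead they were 14.9% Edn2, 15.5% Fgf5, 6.01% Gdf10, 4.12% Krt24, 20.1% Krtdap, 13.8% inner root sheath and 4.99% upper follicle. At most 5% mitochondrial UMIs gave 15.1% Fgf5, 2.23% Gdf10 and 5.98% inner root sheath, leaving out members with S phase genes gave 12.2%, 4.91% and 7.09%, and thinning gave 2.42% upper follicle. Members per 100 S phase cells moved with at least 3 rule genes to 193 (Wfdc18), 124 (Edn2) and 87.5 (Krt24), and with thinning to 236 (Wfdc18), 275.0 (Gdf10) and 356 (Krtdap).

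Calls against S phase cells numbered 614 higher and 424 lower. They were 400 and 198 with at most 5% mitochondrial UMIs, 391 and 262 with UMIs divided at random so that different UMIs chose and measured the cells, and 183 and 11 with no replicate block, that is with the library term left out. Lower calls were 275 with at least 3 rule genes, 840 without members that detected S phase genes and 662 with no filter on low counts. Against non-cycling cells, calls without the replicate block were 886 higher and 347 lower, higher calls with state as a term (cells of 4 states only) 1372, and lower calls 1400 with the stricter mitochondrial limit and 1228 with DESeq2. Of 113 called gene results in the text 42 were called under every one of the 13 alternatives that tested the gene, 71 lost the call under some, most often without the library term, and 1 was reversed: Hba-a1 against S phase cells had a log2 fold change of 1.42 with thinned cells. Against S phase cells the 4 named genes that differed most between libraries were Hba-a1 (-7.30 in replicate 2 and -1.03 in replicate 1), Prr11 (6.64 and 3.48), Krt24 (-1.57 and -3.93) and Cdkn3 (5.69 and 4.17). Against non-cycling cells they were Ccl8 (-7.80 and -2.59), Retnla (-3.04 and -6.84), Tgm5 (-1.09 and -3.90) and Gdf10 (-5.46 and -3.43). Calls could not be counted with a library left out, since no residual degrees of freedom remain. The causes of these shifts were not tested.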
